A study of Homo sapiens with 12 samples.

Results

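Chemokines are small secreted proteins that guide leukocytes through receptors on their surface, and arrested cells that enter senescence are known to release several of them. The set described here holds 10 chemokine genes, chosen by name: CXCL1, CXCL2, CXCL3, CXCL5, CXCL8, CXCL10, CXCL11, CXCL16, CCL20 and CX3CL1. All 10 were found among the 57133 gene names counted. CXCL1, CXCL2, CXCL3, CXCL5 and CXCL8 encode neutrophil attractants that act on CXCR2, and CXCL8 (interleukin 8) also acts on CXCR1. CXCL10 and CXCL11 encode interferon-inducible ligands of CXCR3 on T cells, CCL20 encodes the ligand of CCR6, and CXCL16 and CX3CL1 encode ligands that are made on the cell membrane and shed by proteases. In epithelium the transcription of most of these genes is known to be driven by NF-kappaB, a factor activated by interleukin 1 and Toll-like receptors through the adaptor MYD88, and CXCL10 and CXCL11 are also driven by interferon signalling.

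RNA was sequenced from 12 cultures of MCF10-A, a non-tumorigenic human breast epithelial line, in 4 groups of 3 biological replicates. Each line carried a doxycycline-inducible transgene, and all groups received 50 ng/ml doxycycline from 20 hours after seeding of 150000 cells. The p16 cells given Torin2 expressed mVenus-p16 and received 100 nM of Torin2, an inhibitor of the kinase mTOR, from 24 hours after induction, with medium renewed every 48 hours. The p21 cells expressed mVenus-p21, the p16 cells expressed mVenus-p16, and the mVenus cells expressed the fluorescent protein alone. These 3 groups received the solvent DMSO in place of Torin2. The p16 and p21 proteins each stop proliferation by blocking cyclin-dependent kinases. Harvest was at day 5, and the medium of every group held horse serum, EGF, insulin, hydrocortisone and cholera toxin. The labels do not say whether the lines are clones, so a difference between constructs is also a difference between lines.

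Library totals lay between 13168749 and 18321114 counts, and 14504 genes passed the filter on low counts and were tested. Levels are given as CPM, the counts scaled to a common library size, and a call is an adjusted p under 0.05 over all genes tested. CDKN2A, the gene of p16, had 0 counts in all 12 libraries, so its counts do not check the p16 labels. CDKN1A, the gene of p21, averaged 259 ± 17.0 CPM in p16 cells given Torin2, 888 ± 16.5 in p21 cells, 569.6 ± 30.1 in p16 cells and 711 ± 13.0 in mVenus cells (SD, n = 3 each). All 7 breast epithelial markers were detected in every group, and their summed level was 5521 to 5752 CPM in p16 cells given Torin2, 6118 to 6282 in p21 cells, 12100 to 12690 in p16 cells and 4752 to 5015 in mVenus cells. The sum hides differences between them. With Torin2 over p16 alone, 2 were called higher and 5 lower, beside 30.3% and 29% of all tested genes. TP63 averaged 77.85 CPM with Torin2 and 37.23 in p16 cells, and KRT14 averaged 36.31 and 465.8. Of 8 leukocyte markers, CD3E and TYROBP had 0 counts in all 12 libraries. The leukocyte list's summed level was 51.5 to 55.9 CPM in p16 cells given Torin2, 108 to 110.5 in p21 cells, 114 to 127 in p16 cells and 54.4 to 58.3 in mVenus cells, nearly all of it from CSF1R and CD14. These sums moved with several chemokine results below, and their part in them was not tested. RNA from whole cultures cannot tell fewer cells making a transcript from less transcript per cell.

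The promoters of these genes are given with their letters, because members that respond to NF-kappaB are known to carry its binding letters close to the start. Of the 10 members, 8 matched a RefSeq promoter (GRCh38.p14), all but CXCL16 and CX3CL1. The stretches below end at the base before the RefSeq start, are written 5′ to 3′ on the gene's strand, and have the motif matches in capitals. RefSeq starts can lie inside the longer GENCODE 29 gene, as for CXCL2, CXCL3, CXCL5, CXCL8, CXCL11 and CCL20.
CXCL1, chr4:73869253-73869392, plus strand: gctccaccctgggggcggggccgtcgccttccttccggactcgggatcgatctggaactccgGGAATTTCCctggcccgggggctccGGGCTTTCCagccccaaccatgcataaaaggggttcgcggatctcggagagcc
CXCL2, chr4:74099196-74099335, minus strand: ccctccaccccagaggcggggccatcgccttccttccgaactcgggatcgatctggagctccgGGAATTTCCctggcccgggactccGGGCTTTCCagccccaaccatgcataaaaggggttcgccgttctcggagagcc
CXCL3, chr4:74038690-74038829, minus strand: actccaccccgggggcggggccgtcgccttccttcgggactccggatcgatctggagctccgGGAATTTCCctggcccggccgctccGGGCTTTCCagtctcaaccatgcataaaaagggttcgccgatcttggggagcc
CXCL5, chr4:73998678-73998817, minus strand: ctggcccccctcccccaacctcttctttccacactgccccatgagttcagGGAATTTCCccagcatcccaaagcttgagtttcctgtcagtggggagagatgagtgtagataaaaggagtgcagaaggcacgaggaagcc
CXCL8, chr4:73740429-73740568, plus strand: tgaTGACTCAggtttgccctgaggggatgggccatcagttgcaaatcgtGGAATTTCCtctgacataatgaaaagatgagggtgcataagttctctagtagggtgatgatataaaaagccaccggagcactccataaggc
CXCL10, chr4:76023498-76023722, minus strand: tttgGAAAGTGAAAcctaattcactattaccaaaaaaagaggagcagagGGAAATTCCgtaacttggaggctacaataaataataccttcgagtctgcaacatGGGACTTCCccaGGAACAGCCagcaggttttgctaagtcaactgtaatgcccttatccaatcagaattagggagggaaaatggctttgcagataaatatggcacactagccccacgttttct
CXCL11, chr4:76036071-76036295, minus strand: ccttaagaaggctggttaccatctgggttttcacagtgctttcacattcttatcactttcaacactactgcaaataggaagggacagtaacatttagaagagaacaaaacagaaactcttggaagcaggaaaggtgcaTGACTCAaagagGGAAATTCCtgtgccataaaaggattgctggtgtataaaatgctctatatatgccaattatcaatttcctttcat
CXCL1, CXCL2 and CXCL3 are shown because they share nearly the same letters and yet differed in level, CXCL8 because it differed between all 4 groups, CXCL5 as a member with the same motif that was hardly detected, and CXCL10 and CXCL11 as neighbours whose ratio differed between groups.

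The 9-letter motif GGNNNTTCC was searched on both strands in the 250 bases before each start, after the promoters of CXCL1, CXCL8 and CXCL10 had been looked at, so the matches are a description with no test. CXCL2 and CXCL3 share nearly the letters of CXCL1, so their matches are not separate from its own. The motif was present in all 8 member promoters, beside 17.1% of 35116 RefSeq promoters of the same length. The same letters GGAATTTCC stood 78 to 70 bases before the start in CXCL1 and in CXCL3, 77 to 69 in CXCL2, 90 to 82 in CXCL5 and 91 to 83 in CXCL8. CXCL1, CXCL2 and CXCL3 each held a further match, GGGCTTTCC, 53 to 45 bases before the start. CXCL10 held 3 matches, of which GGAACAGCC reads on the other strand. Among the 8 member promoters, only that of CXCL10 held the core of the interferon-stimulated response element within the 250 bases. The core searched was GAAA and GAAA with 2 bases between, found in 3.02% of the promoters. TGANTCA, the letters of AP-1, was present in CXCL8 and CXCL11 and in 6.57% of the promoters. CCL20 matched GGNNNTTCC once, as GGAAAACCC on the other strand. A match describes the letters only and does not show binding.

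Over mVenus cells, CXCL1, CXCL8, CXCL16 and CCL20 were higher in both p16 and p21 cells. CXCL2 and CXCL10 were called higher in p16 but not in p21 cells, CXCL3 was called higher in p21 but not in p16 cells, and CXCL11 was lower in p21 cells. With Torin2 over p16 alone, every tested member but CXCL3 was called lower, and CXCL3 was lower without a call. The set is read here against all tested genes, since over 50% of them were called in every comparison. Of the 10 members, 8 passed the filter, CXCL10 through its p16 libraries. CXCL5 had 0, 2 and 0 counts in p16 cells given Torin2, 1, 0 and 1 in p16 cells, and 0 in all libraries of p21 and mVenus cells. CX3CL1 had 1, 1 and 0 counts in p16 cells given Torin2, 0 in all p21 libraries, 2, 0 and 0 in p16 cells and 1, 1 and 2 in mVenus cells. Over a whole group, a count of 0 allows up to 3 counts, or 0.0659 CPM in p21 cells and 0.0586 CPM in mVenus cells, a limit that covers counting error only. Neither gene was tested.

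In p16 over mVenus cells, 6 of the 8 tested members were higher and 0 lower, where 30.9% of all tested genes were higher, 32.8% lower and 63.7% called in all. The members' median log2 fold change was 0.735, beside -0.004 over all tested genes. For p21 over mVenus cells, 5 members were higher and 1 lower, beside 28.2% and 28.3% of all genes, and 56.4% called. Their median was 0.564, beside -0.004 over all. With Torin2 over p16 alone, 0 members were higher and 7 lower, beside 30.3% and 29% of all genes, and 59.4% called. The median was -1.27, beside 0.02 over all. These comparisons share the p16 or the mVenus libraries, so they are not separate evidence. CXCL10 passed the low-count filter through its p16 libraries. Its part in the counts and medians of comparisons with p16 cells, here and below, therefore adds no support.

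The arrests were also set against each other. Over p16 cells, p21 cells had 2 members higher and 5 lower, beside 27.2% of all genes in each direction and 54.3% called, with a median of -0.48 beside -0.01 over all. In p16 cells given Torin2 over mVenus cells, 1 member was higher and 3 lower, beside 31.2% and 36.1% of all genes and 67.4% called, with a median of -0.37 beside -0.03. Against p21 cells, a comparison that differs in both the construct and the drug, p16 cells given Torin2 had 1 member higher and 7 lower, beside 33.2% and 33.3% of all genes and 66.5% called. The median was -1.38, beside 0.01 over all.

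**Figure D1:**
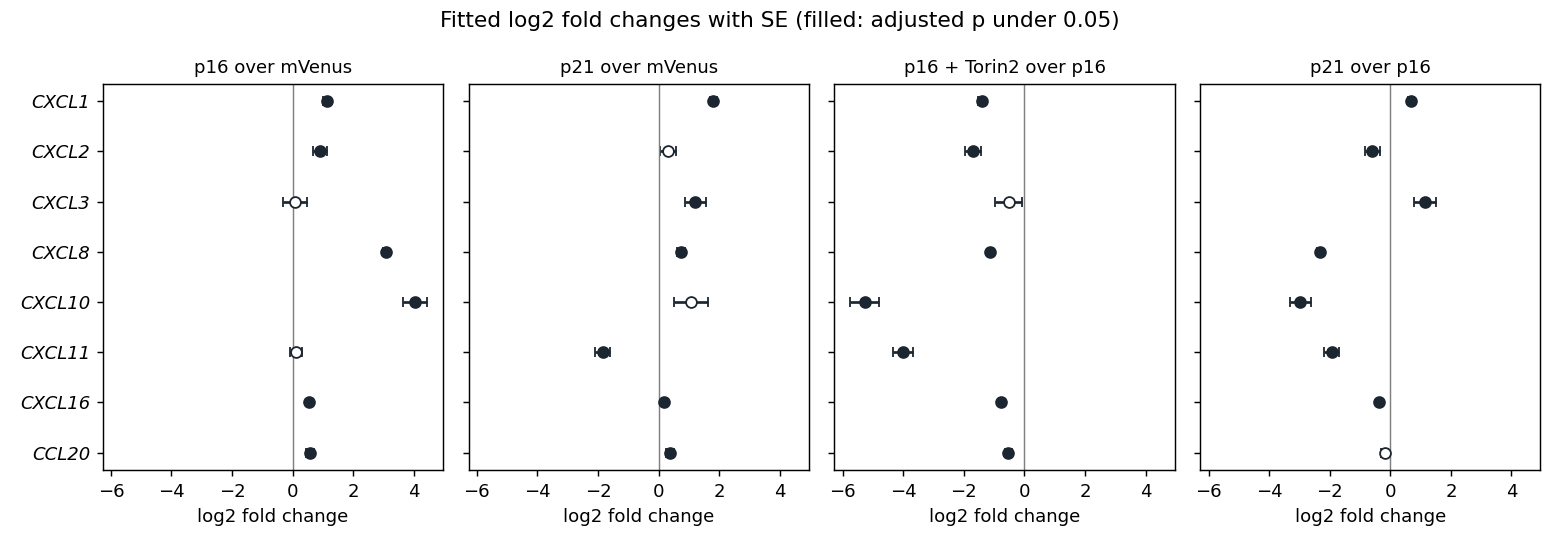
Fitted log2 fold change (x axis) of the 8 tested chemokine genes (rows) in 4 comparisons (panels), with bars of 1 SE; filled points have an adjusted p under 0.05. CXCL8 and CXCL10 lie at 3.07 and 4.05 in p16 over mVenus cells, CXCL1 lies at 1.81 and CXCL11 at -1.84 in p21 over mVenus cells, and every point for Torin2 over p16 is below 0.

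CXCL8 (chromosome 4, 73740506 to 73743716, plus strand, GRCh38), the main neutrophil attractant of the set, differed between all 4 groups. It stood at 30.1, 28.1 and 34.4 CPM in p16 cells given Torin2, 10.99, 15.1 and 14.1 in p21 cells, 64.8, 65.3 and 71.6 in p16 cells, and 8.69, 6.64 and 8.38 in mVenus cells. No group overlapped another, and the order from high to low was p16, p16 with Torin2, p21 and mVenus. CXCL8 rose 8.39-fold in p16 over mVenus cells, a log2 fold change of 3.07 ± 0.10 (SE, adjusted p = 3.36e-16). In p21 over mVenus cells it rose by 0.75 ± 0.13 (adjusted p = 3.53e-05), and p21 cells lay below p16 cells by a log2 fold change of -2.32 ± 0.09 (adjusted p = 2.02e-14). With Torin2 it fell 2.18-fold relative to p16 alone (-1.12 ± 0.08, adjusted p = 2.34e-10). That level was still above mVenus cells (1.95 ± 0.11, adjusted p = 2.85e-12) and above p21 cells (1.19 ± 0.10, adjusted p = 2.09e-09), which made CXCL8 the only member called higher with Torin2 over either group.

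CXCL1 (chromosome 4, 73869393 to 73871242, plus strand), another CXCR2 ligand, was highest in p21 cells. Its levels were 8.78, 9.23 and 9.496 CPM in p16 cells given Torin2, 31.1, 39.8 and 46.7 in p21 cells, 23.7, 22.3 and 27.6 in p16 cells, and 10.7, 11.4 and 11.6 in mVenus cells. All p21 libraries lay above all p16 libraries, and both above the rest. CXCL1 rose by 1.81 ± 0.12 on the log2 scale in p21 over mVenus cells (adjusted p = 3.27e-11) and by 1.13 ± 0.12 in p16 over mVenus cells (adjusted p = 9.86e-08). It was higher in p21 over p16 cells by 0.68 ± 0.10 (adjusted p = 1.16e-05), the reverse of CXCL8. With Torin2 it fell 2.67-fold relative to p16 alone (-1.42 ± 0.13, adjusted p = 1.00e-08). Against mVenus cells the Torin2 level differed by -0.29 ± 0.15, which missed the threshold (adjusted p = 0.0873), although no library overlapped. It passed with no low-count filter (adjusted p = 0.0321) and with only the libraries compared (adjusted p = 0.0222), and over the alternatives its adjusted p ranged between 0.0222 and 0.188.

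CXCL2 (chromosome 4, 74097035 to 74099293, minus strand) is a close relative of CXCL1 and had 10 to 57 counts a library. It stood at 1.17, 0.646 and 1.18 CPM in p16 cells given Torin2, 1.25, 2.60 and 2.55 in p21 cells, 3.55, 3.09 and 3.11 in p16 cells, and 1.68, 1.75 and 1.80 in mVenus cells. The p16 libraries were above all others and the Torin2 libraries below all others. CXCL2 rose in p16 over mVenus cells by 0.90 ± 0.24 (adjusted p = 0.00260) and fell by 1.70 ± 0.27 with Torin2 relative to p16 alone (adjusted p = 1.497e-05). In p21 over mVenus cells the difference was 0.31 ± 0.25 (adjusted p = 0.314), and it passed without p21 replicate 1, the lowest p21 library (0.57, adjusted p = 0.0449, the lowest of a range up to 0.695). Between p21 and p16 cells the log2 fold change was -0.59 ± 0.23 (adjusted p = 0.0392). That call ended without any of the p16 libraries (adjusted p = 0.111, 0.0593 and 0.0530), without p21 replicate 1 (adjusted p = 0.212), with DESeq2 (adjusted p = 0.0799) and with only the libraries compared (adjusted p = 0.0520), with a range over the alternatives of 0.0260 to 0.212. The Torin2 level was below mVenus cells by -0.80 ± 0.29 (adjusted p = 0.0199), a call that ended without Torin2 replicate 2 (adjusted p = 0.113, range 0.0139 to 0.113).

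CXCL3 (chromosome 4, 74036589 to 74038807, minus strand), the third of these near-identical CXCR2 ligands, was sparse, with 4 to 30 counts a library. It stood at 0.781, 0.258 and 0.458 CPM in p16 cells given Torin2, 2.20, 1.30 and 1.34 in p21 cells, 0.374, 0.987 and 0.812 in p16 cells, and 0.785, 0.511 and 0.707 in mVenus cells. Only the p21 libraries stood above all others, and the remaining groups overlapped. CXCL3 rose in p21 over mVenus cells by 1.22 ± 0.35 (adjusted p = 0.00595) and over p16 cells by 1.14 ± 0.36 (adjusted p = 0.0106). The second call ended without p16 replicate 1 (adjusted p = 0.0699) and without p21 replicate 1 (adjusted p = 0.0742, range 0.00363 to 0.0742). In p16 over mVenus cells the difference was 0.08 ± 0.41 (adjusted p = 0.881), and with Torin2 over p16 alone -0.52 ± 0.44 (adjusted p = 0.321). These genes share sequence: of all stretches of 50 bases in their exons, 12.5% in CXCL2, 6.01% in CXCL3 and 4.81% in CXCL1 also occur in another of the 3, so reads there may have been left out of the counts or placed in a relative.

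The CXCR2 ligands sit together, from CXCL8 to CXCL2, on 358.8 kb of chromosome 4 with 9 chemokine genes of the lists used here. The members of the cluster did not keep a fixed ratio between groups. Counts of CXCL8 over counts of CXCL1 in the same library were 3.43, 3.04 and 3.63 in p16 cells given Torin2, 0.353, 0.379 and 0.302 in p21 cells, 2.74, 2.93 and 2.60 in p16 cells, and 0.814, 0.583 and 0.720 in mVenus cells. The ratio was above 1 in every p16 library, with or without Torin2, and below 1 in every other library. Groups did not overlap in any of the 6 comparisons. The pair was chosen after the values were seen, so the ratio is a description with no test. CXCL6, which lies between CXCL8 and CXCL1 and attracts neutrophils, had 1 count over all 12 libraries.

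**Figure D2:**
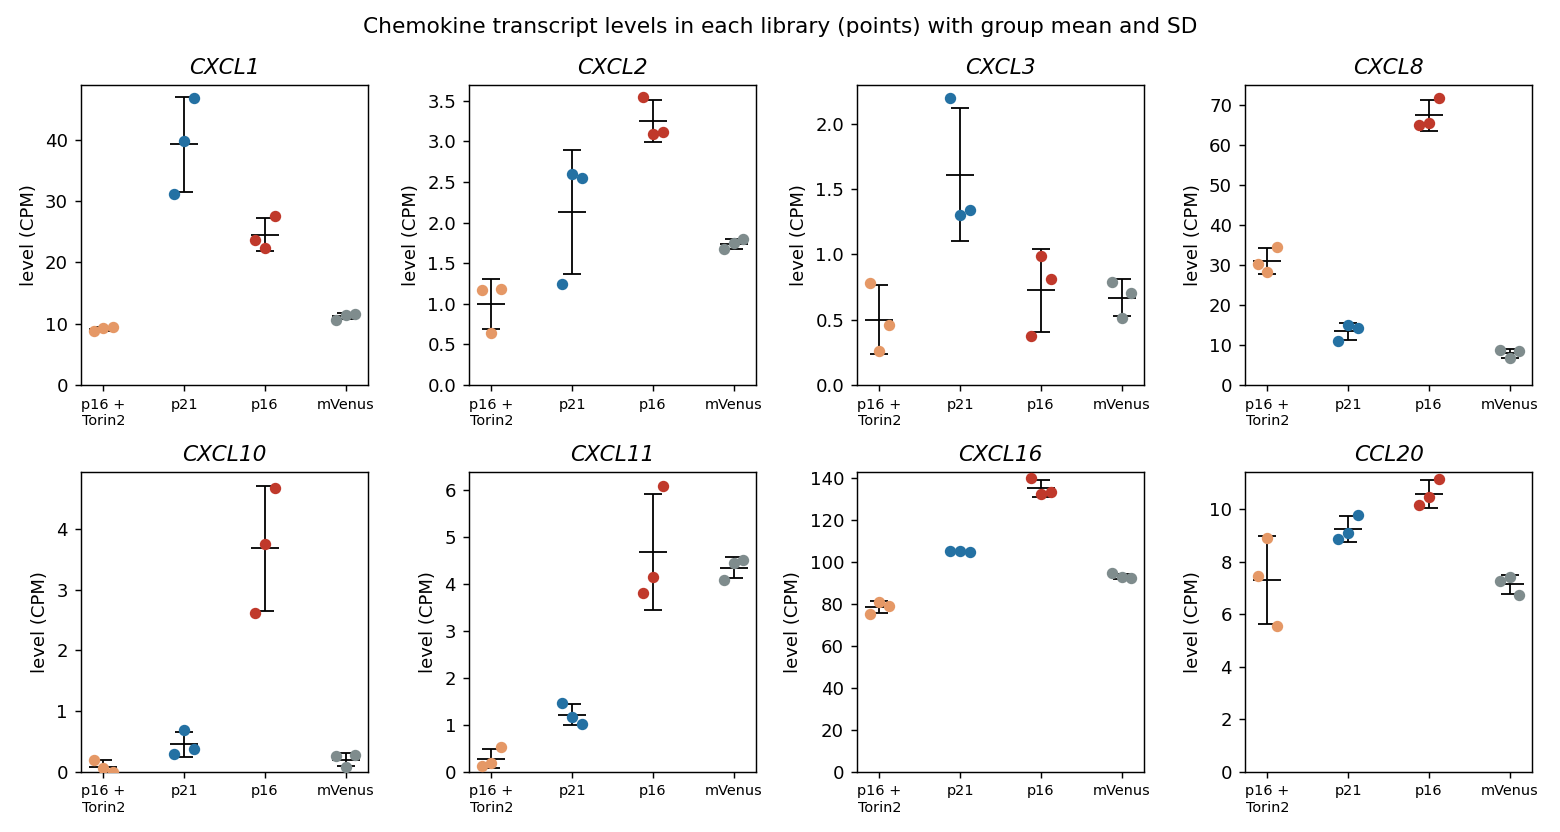
Level in CPM (y axis, each from 0) of the 8 tested chemokine genes (panels) in p16 cells given Torin2, p21, p16 and mVenus cells (x axis); points are libraries, with group mean and SD. CXCL8, CXCL10 and CXCL16 are highest in p16 cells, CXCL1 and CXCL3 in p21 cells, and CXCL10 and CXCL11 lie near 0 with Torin2.

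CXCL10 (chromosome 4, 76021117 to 76023497, minus strand), the CXCR3 ligand also called IP-10, was low in every group but p16 cells without Torin2. Its counts were 3, 1 and 0 in p16 cells given Torin2, 4, 11 and 6 in p21 cells, 42, 57 and 69 in p16 cells, and 5, 1 and 5 in mVenus cells. As levels these were 0.195, 0.0646 and 0 CPM with Torin2, 0.293, 0.680 and 0.382 in p21, 2.62, 3.75 and 4.67 in p16, and 0.262, 0.0729 and 0.272 in mVenus cells. The lowest p16 library was above every library of the other groups. As CXCL10 passed the low-count filter through the p16 libraries, its differences from p16 cells are given as a description. CXCL10 rose 16.6-fold in p16 over mVenus cells (log2 fold change 4.05 ± 0.40, adjusted p = 2.04e-08). With Torin2 it fell 38.8-fold relative to p16 alone (-5.28 ± 0.48, adjusted p = 8.86e-09). As 3 of the 4 counts with Torin2 came from replicate 1, the value without that library was -6.51 (adjusted p = 2.77e-08).

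In p21 cells CXCL10 was below p16 cells by a log2 fold change of -2.97 ± 0.36 (adjusted p = 5.21e-07). Its difference from mVenus cells, 1.08 ± 0.57, was not called (adjusted p = 0.118), although the p21 libraries lay above the mVenus libraries. Torin2 over mVenus cells was not called either (-1.23 ± 0.82, adjusted p = 0.193), with few counts in both groups and libraries that overlapped. Without Torin2 replicate 1 that value was -2.45 (adjusted p = 0.0563, the lowest of a range up to 0.476). Torin2 over p21 cells gave -2.31 ± 0.71 (adjusted p = 0.00768), or -3.53 without Torin2 replicate 1, and the call ended without p21 replicate 2 (adjusted p = 0.0556, range 0.00123 to 0.0556).

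CXCL11 (chromosome 4, 76033682 to 76041415, minus strand) lies within 20.3 kb together with CXCL10 and acts on the same receptor, but it did not rise in p16 cells. Its levels were 0.130, 0.194 and 0.524 CPM in p16 cells given Torin2, 1.47, 1.17 and 1.02 in p21 cells, 3.80, 4.14 and 6.09 in p16 cells, and 4.08, 4.45 and 4.51 in mVenus cells. The p16 and mVenus libraries overlapped, p21 lay below both, and Torin2 lay below p21. In p16 over mVenus cells the log2 fold change was 0.10 ± 0.20 (adjusted p = 0.667). CXCL11 fell by 1.84 ± 0.24 in p21 over mVenus cells (adjusted p = 2.06e-06), and it was the only member called lower there. It was lower in p21 than in p16 cells as well (-1.94 ± 0.24, adjusted p = 1.10e-06).

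With Torin2, CXCL11 fell 16.1-fold relative to p16 alone (-4.01 ± 0.32, adjusted p = 1.36e-09). It was also below mVenus cells (-3.91 ± 0.33, adjusted p = 1.42e-09) and p21 cells (-2.07 ± 0.41, adjusted p = 0.000184). Replicate 3 held 8 of its 13 counts with Torin2, and without that library the values were -4.78, -4.68 and -2.84. The counts of CXCL10 over those of CXCL11 were 0.200, 0.579 and 0.375 in p21 cells, 0.689, 0.905 and 0.767 in p16 cells, and 0.0641, 0.0164 and 0.0602 in mVenus cells. These 3 groups did not overlap, and this pair too was chosen after its values were seen and was not tested. With Torin2 the ratio was 1.5, 0.333 and 0, from at most 3 counts of CXCL10, and was not compared.

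**Figure D3:**
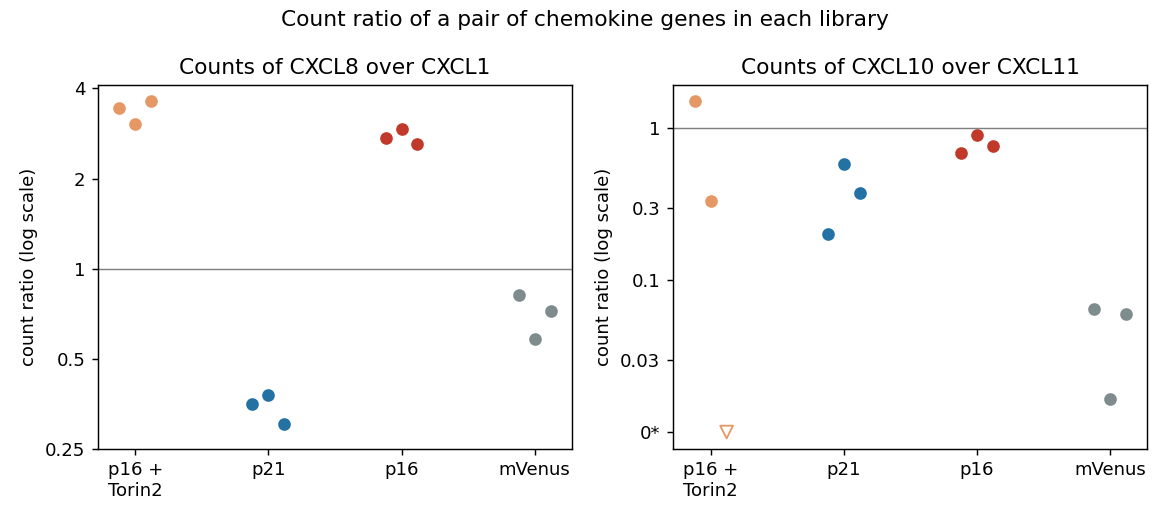
Ratio of the counts of CXCL8 over CXCL1 (left) and of CXCL10 over CXCL11 (right) in each library, on log axes, for p16 cells given Torin2, p21, p16 and mVenus cells; the line marks 1, and the open triangle at 0* is a library with 0 counts of CXCL10. CXCL8 over CXCL1 is 2.60 to 3.63 in the p16 libraries with or without Torin2 and 0.302 to 0.814 in the others.

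CXCL16 (chromosome 17, 4733526 to 4739922, minus strand) encodes a membrane-bound ligand of CXCR6 that also takes up oxidised lipoprotein, and it had the highest mean level per exon length of the 10 genes in every group. Its levels were 75.2, 80.9 and 79.3 CPM in p16 cells given Torin2, 105.1, 105.3 and 104.8 in p21 cells, 139.9, 132 and 134 in p16 cells, and 94.7, 92.9 and 92.2 in mVenus cells. None of the groups overlapped. CXCL16 rose in p16 over mVenus cells by 0.54 ± 0.04 (1.45-fold, adjusted p = 2.40e-10) and in p21 over mVenus cells by 0.17 ± 0.04 (1.13-fold, adjusted p = 0.00113). With Torin2 it fell by 0.79 ± 0.04 relative to p16 alone (adjusted p = 1.12e-12), to a level below mVenus cells (-0.25 ± 0.04, adjusted p = 2.24e-05). A stretch of 85 bases, 3.04% of its exons, is shared with MED11 on the opposite strand. Strand was not used in counting, so reads from that stretch cannot be assigned to either gene.

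CCL20 (chromosome 2, 227805739 to 227817564, plus strand), which draws CCR6-bearing T cells and dendritic cells to epithelium, differed by less than 1.5-fold in each of the 6 comparisons. It stood at 7.48, 8.91 and 5.57 CPM in p16 cells given Torin2, 8.87, 9.09 and 9.80 in p21 cells, 10.2, 10.5 and 11.2 in p16 cells, and 7.28, 7.44 and 6.75 in mVenus cells. The p16 libraries were highest, and the Torin2 libraries spread on both sides of the mVenus libraries. CCL20 rose in p16 over mVenus cells by 0.57 ± 0.12 (adjusted p = 0.000452) and in p21 over mVenus cells by 0.38 ± 0.13 (adjusted p = 0.0155). The second call ended without mVenus replicate 3 (adjusted p = 0.0567) or p21 replicate 3 (adjusted p = 0.0614, range 0.00241 to 0.0614). With Torin2 it fell by 0.53 ± 0.12 relative to p16 alone (adjusted p = 0.00107), and against mVenus cells it differed by 0.04 ± 0.13 (adjusted p = 0.814). Torin2 over p21 cells gave -0.34 ± 0.13 (adjusted p = 0.0252) with overlapping libraries, and that call ended with DESeq2 (adjusted p = 0.0501), without Torin2 replicate 3 (adjusted p = 0.186) and without p21 replicate 3 (adjusted p = 0.0872), with a range of 0.00201 to 0.186. For p21 over p16 cells the value was -0.19 ± 0.12 (adjusted p = 0.190).

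To compare members with each other, levels were divided by exon length. The summed level of the 10 genes was 53.0, 54.8 and 55.6 CPM per kb in p16 cells given Torin2, 74.9, 84.2 and 89.1 in p21 cells, 110.0, 108 and 117 in p16 cells, and 54.4, 53.4 and 54.0 in mVenus cells. The Torin2 and mVenus means, 54.5 ± 1.33 and 53.9 ± 0.486 CPM per kb (SD, n = 3 each), differed by less than the SD of the Torin2 libraries, but the sums were made up differently. CXCL8 took 24.9 ± 2.35% of the sum with Torin2, 7.10 ± 0.720% in p21 cells, 26.5 ± 0.498% in p16 cells and 6.44 ± 0.848% in mVenus cells. CXCL1 took 13.0 ± 0.195% with Torin2, 36.3 ± 4.19% in p21 cells, 16.9 ± 1.13% in p16 cells and 16.1 ± 0.799% in mVenus cells. The share of CXCL16 was 51.6 ± 1.13% with Torin2, 45.7 ± 4.14% in p21 cells, 43.4 ± 2.41% in p16 cells and 61.9 ± 0.702% in mVenus cells. CXCL11 held 4.23 ± 0.252% in mVenus cells and 0.269 ± 0.196% with Torin2.

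**Figure D4:**
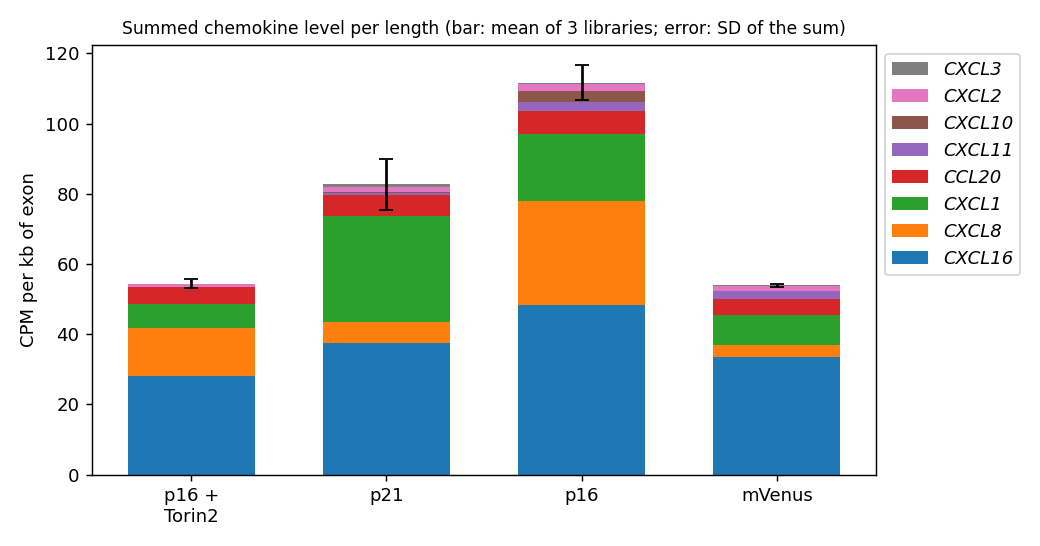
Mean level per exon length (CPM per kb, y axis from 0) of the chemokine genes, stacked, in p16 cells given Torin2, p21, p16 and mVenus cells (x axis); the bar's height is the sum and the error bar its SD over 3 libraries. The sums average 54.5 with Torin2, 82.7 in p21, 112 in p16 and 53.9 in mVenus cells, with CXCL8 the wider band in both p16 groups and CXCL1 in p21 cells; CXCL5 and CX3CL1 are too small to draw.

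Other chemokine genes were mostly silent. Of 34 listed, 22 had 0 counts in all 12 libraries and 2 were tested, CCL28 and PF4. CCL28, a mucosal chemokine read by CCR10 and CCR3, had 11.4, 11.4 and 12.4 CPM in p16 cells given Torin2, 12.3, 12.2 and 11.8 in p21 cells, 141, 147 and 139 in p16 cells, and 14.8, 14.2 and 15.5 in mVenus cells. Its p16 libraries stood far above all others, and the other groups lay close together. CCL28 rose in p16 over mVenus cells by 3.26 ± 0.05 (adjusted p = 8.36e-21) and fell by 3.60 ± 0.06 with Torin2 relative to p16 alone (adjusted p = 1.68e-20), while in p21 over mVenus cells it fell by 0.30 ± 0.07 (adjusted p = 0.00130). PF4 (platelet factor 4) had 4 counts with Torin2, 35 in p21 cells, 4 in p16 cells and 25 in mVenus cells. CXCL9, the third CXCR3 ligand, did not pass the filter and had 1 count with Torin2, 1 in p21 cells, 12 in p16 cells and 0 in mVenus cells. CCL2 had 1 count each in p21 and mVenus cells and CCL5 had 0 in all 12 libraries.

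Receptors for these ligands were hardly detected, with 3 of 23 tested. CXCR2 had 0 counts in p16 cells given Torin2 and in p16 cells, 1 in p21 cells and 2 in mVenus cells, and CCR6 had 0 in all 12 libraries. CXCR1, a receptor of CXCL8, had 32 counts with Torin2, 14 in p21, 41 in p16 and 34 in mVenus cells. ACKR1, an atypical receptor that binds many chemokines without signalling, stood at 1.30, 2.39 and 1.31 CPM with Torin2, 39.7, 41.3 and 41.1 in p21 cells, 2.87, 2.83 and 2.03 in p16 cells, and 3.77, 4.67 and 4.08 in mVenus cells. It rose in p21 over mVenus cells by 3.30 ± 0.11 (adjusted p = 5.00e-16) and was lower in p16 than in mVenus cells (-0.67 ± 0.17, adjusted p = 0.00212). ACKR1 is known from endothelium, and the summed level of 5 endothelial markers was 7.62 to 10.3 CPM with Torin2, 2.23 to 3.37 in p21 cells, 23.1 to 27.8 in p16 cells and 4.74 to 5.77 in mVenus cells. In p16 cells, with or without Torin2, ROBO4 made up most of it, averaging 6.12 CPM with Torin2, 1.07 in p21 cells, 21.75 in p16 cells and 2.33 in mVenus cells, and the other markers did not share a single order of groups. The fibroblast markers summed to 5.59 to 5.89 CPM with Torin2, 110.9 to 117 in p21 cells, 6.97 to 7.41 in p16 cells and 20.1 to 20.4 in mVenus cells, nearly all from DCN in p21 cells, and their part in these results was not tested.

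Among 7 tested proteases that cut or shed chemokines, 4 rose and 3 fell in p16 over mVenus cells, 0 rose and 6 fell in p21 over mVenus cells, and 0 rose and 5 fell with Torin2 over p16 alone. Of all tested genes, 30.9% rose and 32.8% fell in the first of these comparisons, 28.2% and 28.3% in the second, and 30.3% and 29% in the third. The proteases' median log2 fold changes were 0.19, -0.61 and -0.58, beside -0.004, -0.004 and 0.02 over all tested genes. ADAM10, the main sheddase of CXCL16, averaged 189.9 ± 7.17 CPM with Torin2, 213 ± 4.71 in p21 cells, 227 ± 16.8 in p16 cells and 199 ± 1.19 in mVenus cells (SD, n = 3 each). It was higher in p16 over mVenus cells by 0.19 ± 0.05 (adjusted p = 0.00122) and lower with Torin2 over p16 alone by -0.25 ± 0.05 (adjusted p = 6.57e-05). ADAM10 was named for its role after its values were seen. CTSS, a lysosomal protease, fell by 3.44 ± 0.20 with Torin2 relative to p16 alone (adjusted p = 9.12e-12). MMP9, which trims CXCL8, was sparse, with 0 counts in the p21 libraries and 40 in the mVenus libraries. It averaged 0.325 CPM with Torin2, 0.153 in p16 cells and 0.777 in mVenus cells. In p16 over mVenus cells the difference of MMP9 was -2.30 ± 0.46 (adjusted p = 0.000253). As MMP9 passed the low-count filter through its mVenus libraries, its differences from mVenus cells are given as a description. Its part in the protease counts and medians of comparisons with mVenus cells therefore adds no support.

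The inducers of the NF-kappaB arm were called in both directions. Of 24 tested NF-kappaB and interleukin 1 genes, 10 rose and 10 fell in p16 over mVenus cells, 7 rose and 7 fell in p21 over mVenus cells, and 3 rose and 10 fell with Torin2 over p16 alone. Beside them, 30.9% of all tested genes rose and 32.8% fell in p16 over mVenus cells, 28.2% and 28.3% in p21 over mVenus cells, and 30.3% and 29% with Torin2 over p16 alone. The p21 counts lie near those shares, and the list's medians were -0.14, -0.04 and -0.12 in the same order. IL1B, which encodes interleukin 1 beta, stood at 15.8, 17.1 and 12.9 CPM in p16 cells given Torin2, 4.54, 3.96 and 5.35 in p21 cells, 9.34, 6.84 and 8.25 in p16 cells, and 5.97, 5.62 and 4.90 in mVenus cells. Every Torin2 library was above every other library. IL1B rose with Torin2 over p16 alone by 0.90 ± 0.13 (adjusted p = 3.57e-06) and IL1A by 0.29 ± 0.09 (adjusted p = 0.00844), against the direction of the 7 chemokine genes called there. IL1RN, the interleukin 1 receptor antagonist, rose in p16 over mVenus cells by 3.23 ± 0.07 (adjusted p = 9.31e-19) and fell by 1.59 ± 0.06 with Torin2 relative to p16 alone (adjusted p = 6.60e-15). IL1R1, the signalling receptor, fell by 1.61 ± 0.06 in p16 over mVenus cells (adjusted p = 3.62e-15).

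MYD88, the adaptor of interleukin 1 and Toll-like receptors, averaged 49.3 ± 1.498 CPM with Torin2, 139.5 ± 2.19 in p21 cells, 179 ± 10.7 in p16 cells and 81.2 ± 1.73 in mVenus cells (SD, n = 3 each). It rose in p16 over mVenus cells by 1.14 ± 0.05 (adjusted p = 6.89e-15) and in p21 over mVenus cells by 0.78 ± 0.05 (adjusted p = 6.17e-12), and fell by 1.86 ± 0.05 with Torin2 relative to p16 alone (adjusted p = 1.94e-17). Of 12 tested C/EBP and AP-1 factors, 6 rose and 3 fell in p16 over mVenus cells, beside 30.9% and 32.8% of all tested genes. In p21 over mVenus cells 5 rose and 3 fell, beside 28.2% and 28.3%, and with Torin2 over p16 alone 4 rose and 5 fell, beside 30.3% and 29%. The list's medians lay between -0.02 and 0.01. CEBPD rose in p16 over mVenus cells by 1.03 ± 0.05 (adjusted p = 4.00e-13), whereas JUNB fell by 0.58 ± 0.04 (adjusted p = 2.10e-10).

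More interferon regulators rose than fell in both arrests. Of 16 tested, 9 were higher and 1 lower in p16 over mVenus cells, beside 30.9% and 32.8% of all tested genes. In p21 over mVenus cells 11 were higher and 2 lower, beside 28.2% and 28.3%, and with Torin2 over p16 alone 0 were higher and 11 lower, beside 30.3% and 29%. The list's medians were 0.27, 0.48 and -0.40 in the same order. USP18, a protease that removes ISG15 and restrains interferon signalling, stood at 5.99, 5.55 and 6.94 CPM with Torin2, 32.98, 32.95 and 37.9 in p21 cells, 31.1, 28.03 and 32.9 in p16 cells, and 12.6, 14.1 and 9.30 in mVenus cells. All p21 and p16 libraries lay above the mVenus libraries, and the Torin2 libraries lay below them. USP18 rose by 1.37 ± 0.11 in p16 over mVenus cells (adjusted p = 5.77e-10) and by 1.55 ± 0.11 in p21 over mVenus cells (adjusted p = 9.52e-11), and fell by 2.32 ± 0.12 with Torin2 relative to p16 alone (adjusted p = 1.89e-12). Between p21 and p16 cells it differed by 0.17 ± 0.09, which was not called (adjusted p = 0.119). Against p16 cells, p21 cells had 7 of the 16 regulators higher and 3 lower, beside 27.2% of all tested genes in each direction. The p21 libraries held 0.452 ± 0.203 CPM of CXCL10 and 1.22 ± 0.227 CPM of CXCL11 (SD, n = 3), both lower than in p16 cells. Any link between these regulators and the levels of CXCL10 and CXCL11 was not tested.

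**Figure D5:**
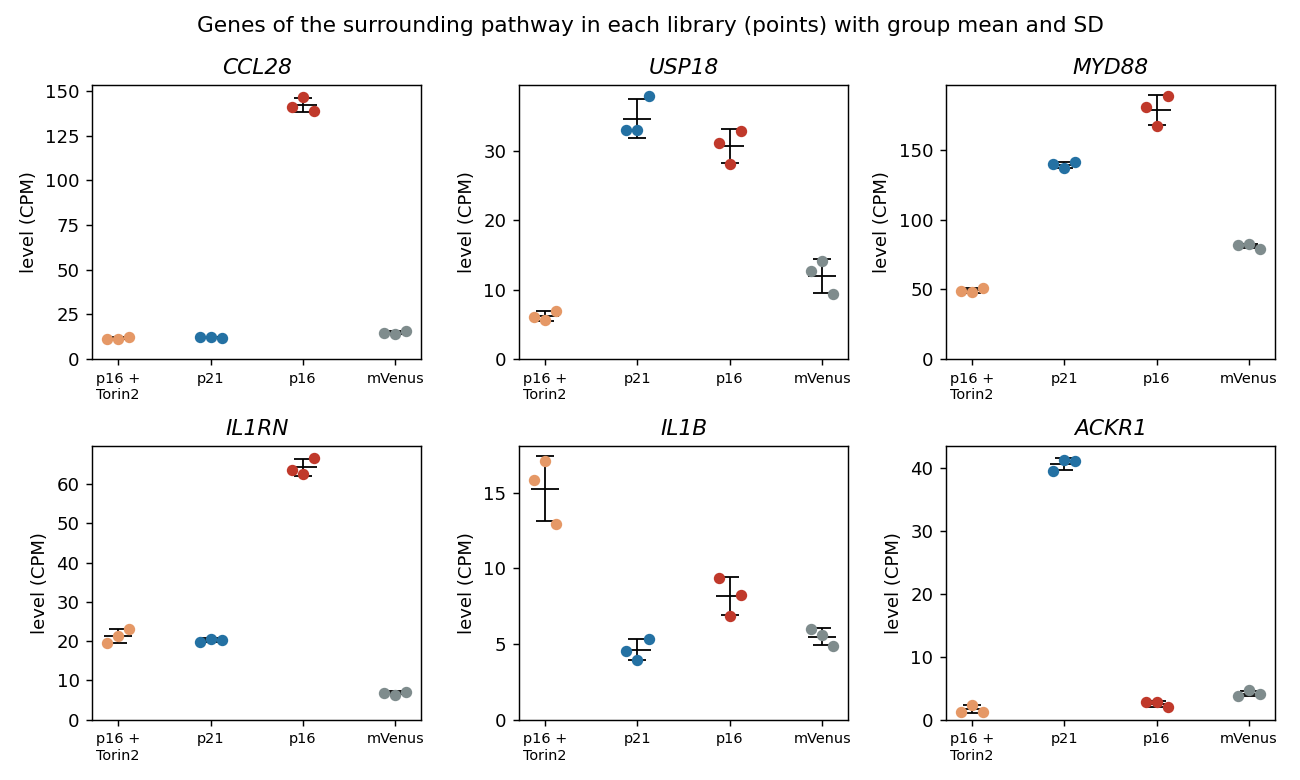
Level in CPM (y axis, each from 0) of 6 genes around the chemokines (panels) in p16 cells given Torin2, p21, p16 and mVenus cells (x axis); points are libraries, with group mean and SD. CCL28 and IL1RN peak in p16 cells, ACKR1 in p21 cells and IL1B with Torin2, while USP18 and MYD88 are high in both p21 and p16 cells.

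Regulators of chemokine mRNA decay and glucocorticoid response genes, listed because the medium held hydrocortisone, were also counted. Of 10 tested decay regulators, 3 rose and 4 fell in p16 over mVenus cells, close to the 30.9% and 32.8% of all tested genes. In p21 over mVenus cells 2 rose and 4 fell, beside 28.2% and 28.3%, and with Torin2 over p16 alone 4 rose and 2 fell, beside 30.3% and 29%, so these counts say nothing particular about the list. ZFP36, whose protein tristetraprolin speeds the decay of CXCL8 and CXCL1 transcripts, rose in p16 over mVenus cells by 0.72 ± 0.05 (adjusted p = 5.32e-11). ZFP36L1, a relative, rose with Torin2 over p16 alone by 0.55 ± 0.04 (adjusted p = 3.03e-10). Of 7 tested glucocorticoid response genes, 3 rose and 3 fell in p16 over mVenus cells, 4 rose and 0 fell in p21 over mVenus cells, and 2 rose and 4 fell with Torin2 over p16 alone, beside the same shares of all tested genes: 30.9% and 32.8%, 28.2% and 28.3%, and 30.3% and 29%. TSC22D3, which encodes the glucocorticoid-induced leucine zipper protein, rose in p21 over mVenus cells by 1.503 ± 0.046 (adjusted p = 1.62e-16).

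For each tested member, the most similar of 10867 genes with at least 5 CPM in a group mean were found by the root mean square difference of centred log2 CPM over the 12 libraries, a description with no test. CXCL1 was nearest to C19orf66 (0.151), ZNFX1 (0.164) and BST2 (0.179), the last being the virus-tethering protein tetherin. BST2 averaged 89.5 CPM with Torin2, 359 in p21, 275 in p16 and 107 in mVenus cells, the same order of groups as CXCL1. CXCL8 was nearest to C1orf74 (0.242), COL13A1 (0.252) and the protease inhibitor gene CSTA (0.265), and CXCL10 to SPINK5 (0.300), GBP6 (0.311) and ABCC2 (0.330). CXCL11 was nearest to SUSD2 (0.281), MVD (0.306) and IDI1 (0.360), of which MVD and IDI1 encode enzymes of the mevalonate pathway. MVD averaged 14.6 CPM with Torin2, 23.4 in p21, 74.7 in p16 and 76.7 in mVenus cells. CXCL16 was nearest to PTPN1 (0.0536), SPINT2 (0.0581) and CARD6 (0.0588), and genes close to CCL20 included BLZF1 (0.129) and TAOK3 (0.130). The measure is not scaled to a gene's counts or its range between groups, so its size is not compared between members. For the low-count members the nearest were SEC14L1 (0.233), NMI (0.242) and TLR1 (0.243) to CXCL2, and AC096921.2 (0.251), SPATA18 (0.263) and FAM111A-DT (0.264) to CXCL3.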

How the data were processed

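The authors deposited a file of whole-number counts for each library, with no normalization. They came from featureCounts 1.6.3, per the file headers, which summed exons by gene name over GENCODE 29 with no option for strand, multimapping or pairs. Per the submitters' processing notes, FastQC 0.11.3, HISAT2, Subread, DESeq2 and the build GRCh38.p7 were used. Messenger RNA was oligo-dT selected and libraries kept strand, per the labels' protocols. The authors' 3 deposited tables of comparisons were not used here.

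Counts of all 12 libraries were fitted with edgeR 4.0.16 in R 4.3.3 (TMM scaling, filterByExpr, 1 coefficient per group, quasi-likelihood test, 8 residual degrees of freedom), two-sided, with Benjamini-Hochberg adjustment over 14504 genes and a threshold of 0.05. CPM uses the TMM library sizes, and the level per kb divides CPM by the length in the count files. The fit was tried on simulated data with 50 genes changed at each of 1.5-, 2-, 4- and 8-fold. It recovered 62 to 78% of the 1.5-fold and 78 to 92% of the 2-fold changes, with 6 to 12 false calls a comparison. Far fewer genes were changed there than were called in these data, so the simulation does not test the fit under changes this widespread. The common biological coefficient of variation was 3.94%. No libraries of a group agreed within counting noise (chi-square over its degrees of freedom, 1.60 to 5.87), so none was merged. The members and gene lists were chosen with earlier results of these data known. The text names all 10 members and, per other list and comparison, at most 2 of the largest rises and 2 of the largest falls past the threshold, and the 3 genes most like each member; a few genes under this rule are not reported here. Genes named outside this rule (CXCL6, CXCL9, CCL2, CCL5, CXCR2, CCR6, CXCR1 and ADAM10) were chosen after their values were seen. DESeq2 1.42.0, other scalings, no filter, only the libraries compared, a replicate block and left-out libraries were tried as alternatives.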

Additional observations from a re-analysis of the deposited data

How the results depend on the processing

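The counts of called members and of called genes stayed within 1.5 times their value under all 12 alternatives of each of the 6 comparisons: 6 members in p16 over mVenus cells and 7 with Torin2 over p16 in every case, 5 to 7 in p21 over mVenus cells, 5 to 7 in p21 over p16 cells, 3 to 5 with Torin2 over mVenus cells and 7 to 8 with Torin2 over p21 cells. Of the members' single values, 548 kept direction and call, 15 lost the call, 4 gained it and 6 changed sign, and none of those 6 was called. The sign changes came with a library left out: CXCL3 in p16 over mVenus cells ranged from -0.21 to 0.40, with -0.06 without mVenus replicate 2 and -0.01 without p16 replicate 3, CXCL11 in p16 over mVenus cells ranged from -0.13 to 0.24, and CCL20 with Torin2 over mVenus cells from -0.13 to 0.20, with -0.004 without mVenus replicate 3. The cause was not tested. With only the libraries compared, CXCL10 did not pass the low-count filter in the 3 comparisons without p16 cells and has no value there. Replicate numbers were not treated as pairing, since the labels do not say that equal numbers share a batch. To look for a shared batch, each group's mean was subtracted from the log2 CPM of each gene, and what remained was correlated between libraries. These remainders correlated between -0.116 and 0.084 for same-numbered libraries of 2 groups, and between -0.115 and 0.196 for differently numbered ones. By them, a library was closest to its own number in 17 of 36 cases, which does not exclude a shared batch. With the replicate block, 9115, 8073, 8505, 7743, 9651 and 9524 genes were called in p16 over mVenus, p21 over mVenus, Torin2 over p16, p21 over p16, Torin2 over mVenus and Torin2 over p21 cells, and CXCL1 passed in Torin2 over mVenus cells (adjusted p = 0.0294), with no other member's call changed. Shares of the summed level without division by length gave CXCL16 61.4% with Torin2, 61.1% in p21, 54.1% in p16 and 73.7% in mVenus cells, and CXCL1 7.17%, 22.6%, 9.79% and 8.88% in the same order. Low counts limit CXCL3, CXCL5, CX3CL1, CXCL10 and, with Torin2, CXCL11.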
